A study of Rattus norvegicus with 18 samples.

Results

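The mitochondrial genome was represented by 37 of the 32623 gene rows measured by RNA-Seq in rat liver. Members were taken by name: 13 rows had a symbol starting with Mt-, and 24 carried the name of the mitochondrial sequence record, AY172581, with a running number. Livers came from male Wistar rats of 3 groups with 6 rats each and 1 library per rat. Control rats received standard chow and normal water for 12 weeks. The NASH group received CCl4 by inhalation and phenobarbital in the drinking water for 6 weeks, then 4 weeks of a diet rich in fat and cholesterol (HFCD), which makes 10 weeks in all. The NASH-CH group, a model of NASH with cirrhosis, received CCl4 and phenobarbital throughout 24 weeks, with HFCD in the last 16. Age, toxin, phenobarbital and diet changed together between groups, so their parts in any difference cannot be told apart.

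Mitochondrial DNA is a small circle present in many copies per cell. It encodes core subunits of respiratory complexes I, III, IV and V, together with the rRNAs and tRNAs that translate them inside the organelle. Both strands are transcribed into long precursors that are cut into single transcripts, so the level of each RNA depends on its stability as well as on transcription. Every other subunit of these complexes, and all proteins that copy, transcribe and translate the genome, come from the nucleus. Hepatocytes are rich in mitochondria and use them for fatty acid oxidation, the urea cycle and ketone body synthesis. In whole tissue, fewer cells of a type and less RNA per cell cannot be told apart, and the number of mitochondrial genomes was not measured.

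The 13 Mt- rows were the 7 complex I genes Mt-nd1, Mt-nd2, Mt-nd3, Mt-nd4, Mt-nd4l, Mt-nd5 and Mt-nd6, the complex III gene Mt-cyb, the complex IV genes Mt-co1, Mt-co2 and Mt-cox3, and the complex V genes Mt-atp6 and Mt-atp8. These are all protein-coding. The 24 AY172581 rows are then the rRNA and tRNA genes, but the files do not pair a row with an rRNA or tRNA name, so they are described by row. All 13 Mt- rows and 4 AY172581 rows (AY172581.9, AY172581.15, AY172581.19 and AY172581.24) passed the filter on low counts and were tested. Of the other 20, 8 had no count in any library, which in the library with the smallest scaled total allows up to 0.187 CPM (counts per 1e+06 of that total), and 12 had a few counts, at most 45 over all 18 libraries. Nuclear copies of mitochondrial DNA could share reads with these rows, which makes every level below uncertain to that extent. Gene length was not given, so counts of different genes do not rank their RNA levels, and ratios between genes are compared only between groups.

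Library totals were 19498516 to 27174006 counts for control rats, 20827733 to 29491895 for NASH and 44680345 to 60117806 for NASH-CH rats. The NASH-CH libraries were all deeper than the others, so depth and group cannot be told apart there. The small nuclear and cytosolic RNAs 7SK and SRP also differed, at 15.2 to 21.0% of counts for control, 13.9 to 16.2% for NASH and 10.5 to 12.6% for NASH-CH rats, with no overlap between NASH-CH and either other group. The 9 hepatocyte markers were present throughout, with a summed level of 137126 to 196124 CPM for control, 99048 to 159968 for NASH and 91967 to 149985 for NASH-CH rats. Of 9 tested, 3 fell in NASH-CH rats, including Alb (log2 fold change -0.61, adjusted p = 0.0304), where 8.60% of all genes fell. The 9 markers had a median log2 fold change of -0.044 there, with 6 below 0. Alb alone had a mean of 105875 CPM in control livers, beside 162130 for the sum. Thinning the NASH-CH libraries to the mean control depth, and leaving out small RNA, 7SK and SRP, each gave the same mitochondrial calls against control as the full data. A fit with the 7SK and SRP share as a covariate, described below, did not. The part of the hepatocyte markers in the results was not tested.

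Mitochondrial rows held a large part of every library. Their share was 21.0% ± 2.41 of counts for control rats (SD, n = 6), 17.2% ± 1.58 for NASH rats and 21.0% ± 3.68 for NASH-CH rats. Single livers ran from 17.0 to 24.5% in control, from 14.8 to 18.9% in NASH and from 17.2 to 26.2% in NASH-CH, so all 3 groups overlapped. Counting error was small beside this spread, since the widest 95% Wilson interval of a share spanned 0.0358 percentage points. As a sum over members chosen for this description, the share was given no test.

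The Mt- rows and the AY172581 rows did not move alike. Protein-coding Mt- rows took 1.81% ± 0.207 of counts for control, 1.95% ± 0.133 for NASH and 2.57% ± 0.558 for NASH-CH rats. AY172581 rows took 19.2% ± 2.51, 15.2% ± 1.61 and 18.5% ± 3.24. Nearly all of the latter lay in the rows AY172581.24 and AY172581.9, which together held 99.9993% of the AY172581 counts. Per count in the Mt- rows, these held 10.8 ± 2.42 counts for control rats, 7.85 ± 1.03 for NASH and 7.31 ± 1.07 for NASH-CH rats, and 5 of 6 NASH-CH livers lay below every control liver. This ratio does not depend on how libraries were scaled, was chosen after its values were seen and has no test. It can still depend on how each library was prepared, since it sets AY172581 rows against protein-coding rows. Group means of the 7SK and SRP share, also of RNA other than mRNA, fell in the same order of groups. The part of library preparation in the ratio was not tested.

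**Figure D1:**
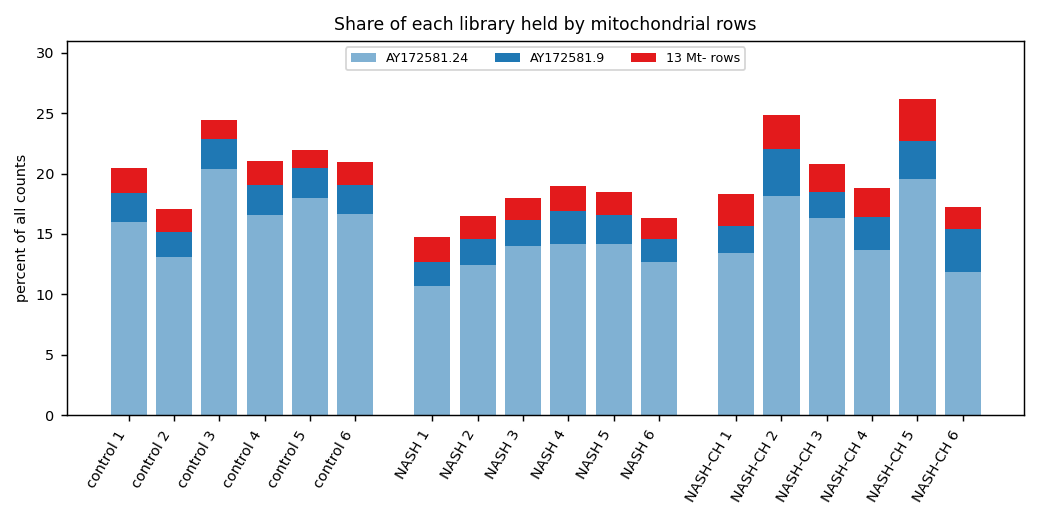
Percent of all counts in each library (y axis) held by AY172581.24, AY172581.9 and the 13 Mt- rows, with 1 stacked bar per rat (x axis, by group and replicate number). Total bar height overlaps between groups, from 14.8% in NASH rat 1 to 26.2% in NASH-CH rat 5, while the Mt- part reaches 3.47% in NASH-CH and at most 2.04% in control rats.

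Of the Mt- rows that passed the test in any comparison, 5 encode complex I subunits and 1, Mt-cyb, belongs to complex III, and 2 AY172581 rows with few counts passed as well. CPM below are scaled by the trimmed mean of M values (TMM), and tests are limma-voom moderated t-statistics in 1 fit of all 18 rats, with Benjamini-Hochberg adjustment over 12904 genes and a threshold of 0.05. In NASH rats, 1 of the 17 tested mitochondrial rows rose and none fell, where 3.12% of all genes tested were called, 1.58% as higher and 1.54% as lower. In NASH-CH rats, 5 rows rose (Mt-nd1, Mt-nd2, Mt-nd4, Mt-nd4l and Mt-nd5) and 2 fell (AY172581.15 and AY172581.19), where 17.0% of all genes were called, 8.38% as higher and 8.60% as lower. Between NASH-CH and NASH, 6 rows were higher, the same 5 genes and Mt-cyb, and the same 2 rows were lower, where 4.20% of all genes were called, 1.81% as higher and 2.39% as lower. The 2 lower rows passed the filter on low counts only through control and NASH livers, so their calls carry little weight. Levels of Mt-nd2, Mt-nd4 and Mt-nd4l in NASH-CH livers did not overlap with either other group, which 3.64% of all genes did upwards against control and 1.36% against NASH. The 13 Mt- rows had a median log2 fold change of -0.12 in NASH and 0.35 in NASH-CH rats, beside 0.0072 and 0.013 over all genes tested. Any pair of these comparisons shares 1 group of rats, so they are not independent of each other.

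Mt-nd4 (ENSRNOG00000029707), a proton-pumping core subunit of complex I, rose in both disease groups. Its level was 359, 424 and 493 CPM in the lowest, median and highest control liver, 400, 642 and 720 in NASH and 903, 1052 and 1084 in NASH-CH livers. Among NASH livers 5 of 6 lay above every control liver, and all 6 NASH-CH livers lay above every NASH liver, so the groups stood as separate steps apart from 1 NASH rat. The log2 fold change against control was 0.51 ± 0.125 (SE) for NASH (adjusted p = 0.0342) and 1.27 ± 0.132 for NASH-CH rats (adjusted p = 2.8e-06). Between NASH-CH and NASH it was 0.76 ± 0.135 (adjusted p = 0.0017). The NASH call was lost when control rat 1, 3, 4 or 5 or NASH rat 1, 2, 3, 4 or 5 was left out, with adjusted p of 0.0595 to 0.0944 in those 9 fits and a log2 fold change of 0.45 to 0.53, and also when control and NASH rats were fitted alone (adjusted p = 0.0522).

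Mt-nd4l (ENSRNOG00000031053), a small membrane subunit whose reading frame overlaps that of Mt-nd4 on a shared transcript, had the same calls in NASH-CH rats and none in NASH rats. It ran through 33.1, 43.9 and 52.0 CPM in control, 35.1, 66.3 and 70.0 in NASH and 88.0, 101 and 119 in NASH-CH livers. NASH-CH livers were apart from all others, and 5 of 6 NASH livers exceeded the control range. Its log2 fold change was 1.22 ± 0.162 in NASH-CH rats (adjusted p = 4.7e-05), 0.80 ± 0.164 between NASH-CH and NASH (adjusted p = 0.00686) and 0.42 ± 0.149 in NASH rats, where it missed the threshold (adjusted p = 0.114).

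Mt-nd2 (ENSRNOG00000031033), another membrane-arm subunit, had the largest fold change among the Mt- rows in NASH-CH rats. Control livers had 229, 299 and 333 CPM, NASH livers 236, 436 and 475, and NASH-CH livers 650, 687 and 860. No NASH-CH liver overlapped with another group, and 4 of 6 NASH livers were above the control range. The log2 fold change was 1.32 ± 0.166 in NASH-CH (adjusted p = 2.7e-05), 0.92 ± 0.17 between NASH-CH and NASH (adjusted p = 0.00264) and 0.40 ± 0.156 in NASH rats (adjusted p = 0.151).

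Mt-nd1 (ENSRNOG00000030644), the subunit next to the quinone site, and Mt-nd5 (ENSRNOG00000029971), the outermost membrane subunit, rose in NASH-CH rats by less, and their levels overlapped with those of control rats. Mt-nd1 levels were 641, 704 and 937 CPM in control, 639, 806 and 949 in NASH and 821, 1412 and 1911 in NASH-CH livers. Its log2 fold change was 0.86 ± 0.164 in NASH-CH (adjusted p = 0.00173), 0.75 ± 0.166 against NASH (adjusted p = 0.0126) and 0.11 ± 0.156 in NASH rats (adjusted p = 0.724). Every NASH-CH liver exceeded every control liver except NASH-CH rat 6.

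Mt-nd5 had 391, 466 and 525 CPM in control, 309, 426 and 509 in NASH and 491, 652 and 872 in NASH-CH livers, with 5 of 6 NASH-CH livers above the control range. The log2 fold change was 0.49 ± 0.154 in NASH-CH (adjusted p = 0.0343), 0.67 ± 0.154 against NASH (adjusted p = 0.0171) and -0.17 ± 0.146 in NASH rats (adjusted p = 0.523). The first of these calls was lost without control rat 1, 3 or 5 or NASH-CH rat 2, 4, 5 or 6, with adjusted p of 0.0506 to 0.0876 and a log2 fold change of 0.41 to 0.51. It was also lost with sample quality weights (0.43, adjusted p = 0.0674). The call against NASH was lost when NASH-CH and NASH rats were fitted alone (0.66, adjusted p = 0.0651).

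The remaining complex I genes, Mt-nd3 and Mt-nd6, did not pass the test in any comparison. Mt-nd3 gave a log2 fold change of 0.10 ± 0.193 in NASH and 0.059 ± 0.2 in NASH-CH rats, with levels of 150 to 282 CPM in control and 112 to 353 in NASH-CH livers. Mt-nd6, which is encoded on the opposite strand to all other protein-coding genes, had 111, 144 and 160 CPM in control, 54.8, 99.6 and 132 in NASH and 88.5, 126 and 179 in NASH-CH livers. In NASH, 3 of 6 livers lay below every control liver. Its log2 fold change was -0.64 ± 0.208 for NASH (adjusted p = 0.0901, and 0.037 with sample quality weights) and -0.22 ± 0.221 for NASH-CH rats (adjusted p = 0.526).

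**Figure D2:**
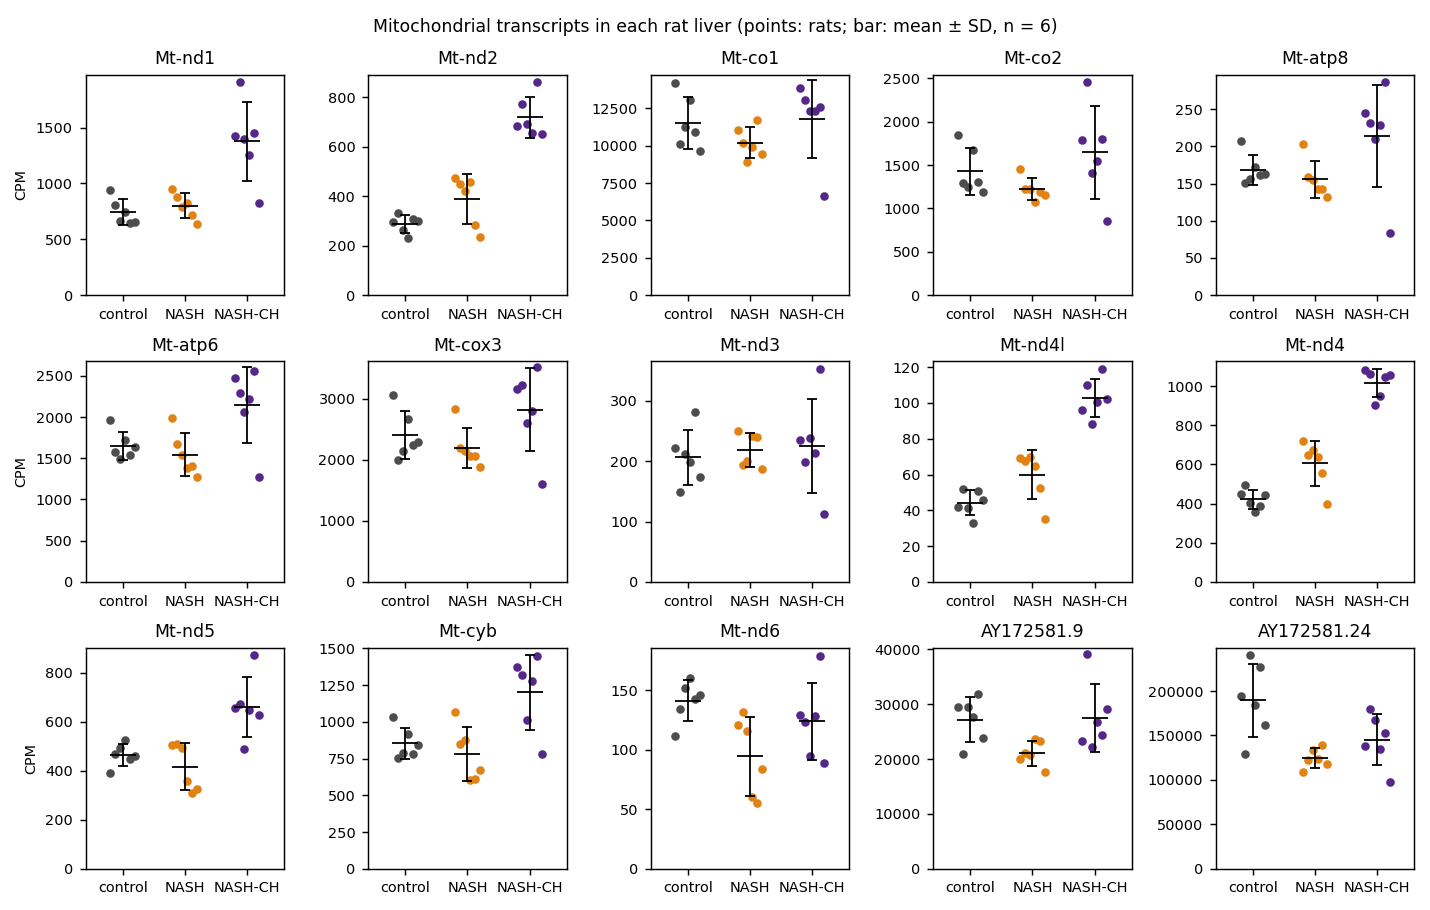
TMM-scaled CPM (y axis, linear and starting at 0, its range set for each gene) of the 13 Mt- rows and the rows AY172581.9 and AY172581.24 in control, NASH and NASH-CH livers (x axis), with 1 point per rat and bars for mean ± SD (n = 6). Mt-nd2, Mt-nd4 and Mt-nd4l separate NASH-CH from both other groups, while Mt-co1 overlaps, with NASH-CH rat 6 lowest at 6628 CPM.

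Mt-cyb (ENSRNOG00000031766), the cytochrome b of complex III, was higher in NASH-CH than in NASH rats, and its difference from control did not pass the threshold with limma. Levels were 753, 817 and 1035 CPM in control, 602, 760 and 1067 in NASH and 778, 1299 and 1449 in NASH-CH livers. Of the NASH-CH livers, 4 of 6 lay above every NASH liver. The log2 fold change was 0.62 ± 0.17 against NASH (adjusted p = 0.0457) and 0.47 ± 0.17 against control (adjusted p = 0.0648), and in NASH rats it was -0.15 ± 0.162 (adjusted p = 0.626). The call against NASH held without NASH rat 1 or NASH-CH rat 6 and was lost when any 1 of the other 16 rats was left out (log2 fold change 0.55 to 0.67, adjusted p of 0.051 to 0.107). It was also lost with nuclear scaling (adjusted p = 0.0504), without small RNA (0.068) and with both groups fitted alone (0.116). Against control, Mt-cyb was called higher with edgeR (adjusted p = 0.0453), DESeq2 (0.0213), library size only (0.00426), sample quality weights (0.038) and no filter (0.0408), so neither its call nor its lack of one was stable.

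Complex IV transcripts gave no call with limma, edgeR or DESeq2 in any comparison, and 0 of 3 had an unadjusted p under 0.05, while with library size only Mt-cox3 was called in NASH-CH rats (0.46, adjusted p = 0.0386). Mt-co1, the catalytic subunit of cytochrome c oxidase, was at 9616, 11091 and 14220 CPM in control, 8939, 10039 and 11750 in NASH and 6628, 12451 and 13848 in NASH-CH livers, with wide overlap. Its log2 fold change was -0.17 ± 0.16 in NASH and 0.0041 ± 0.164 in NASH-CH rats (adjusted p = 0.99). Mt-co2, which carries the copper site that takes electrons from cytochrome c, gave -0.21 ± 0.183 in NASH and 0.15 ± 0.19 in NASH-CH rats. Mt-cox3 gave -0.13 ± 0.164 and 0.20 ± 0.17.

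The complex V genes Mt-atp6, a part of the proton channel, and Mt-atp8, a small membrane subunit, did not pass the test either, although Mt-atp6 had an unadjusted p under 0.05 in both comparisons of NASH-CH rats and was called by DESeq2 against NASH. In control livers Mt-atp6 ran from 1494 to 1962 CPM, in NASH livers from 1267 to 1987 and in NASH-CH livers from 1273 to 2562. Its log2 fold change was -0.11 ± 0.149 in NASH, 0.35 ± 0.156 in NASH-CH (adjusted p = 0.136) and 0.45 ± 0.156 between NASH-CH and NASH (adjusted p = 0.121). Mt-atp8 gave -0.12 ± 0.198, 0.25 ± 0.209 and 0.37 ± 0.21.

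Liver 6 of the NASH-CH group was the lowest of its group in 10 of the 13 Mt- rows. With it left out, Mt-cyb (log2 fold change 0.59, adjusted p = 0.0218), Mt-atp6 and Mt-atp8 passed the test against control and Mt-nd5 did not, which made 7 Mt- rows higher, and 8 Mt- rows were higher against NASH.

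**Figure D3:**
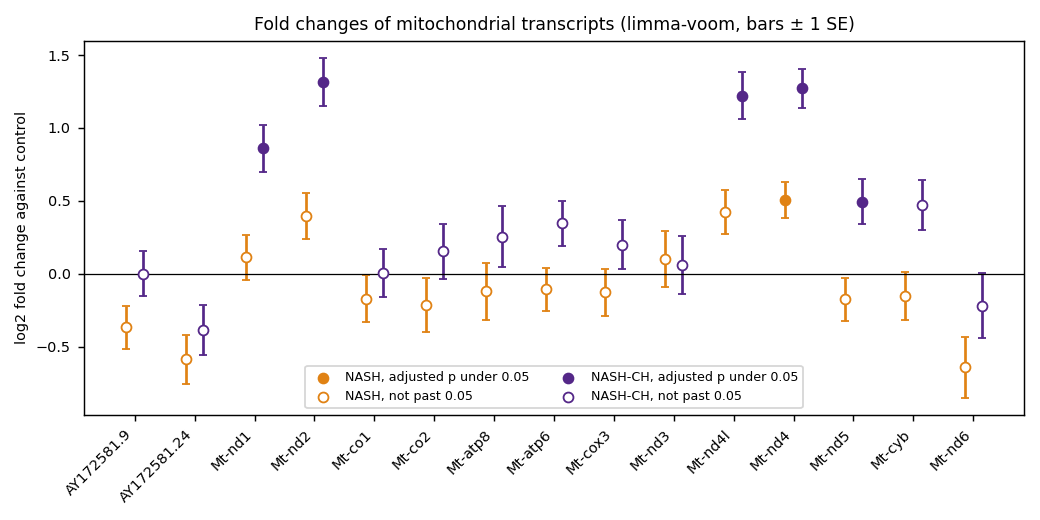
Log2 fold change against control (y axis) of 15 mitochondrial rows (x axis) in NASH and NASH-CH rats from limma-voom, with bars of 1 SE and filled points for an adjusted p under 0.05. Filled points are Mt-nd4 in NASH (0.51) and Mt-nd1, Mt-nd2, Mt-nd4, Mt-nd4l and Mt-nd5 in NASH-CH rats, and AY172581.15 and AY172581.19, which have few counts, are not drawn.

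The row with the most counts, AY172581.24 (ENSRNOG00000043866), did not pass the limma test in any comparison, although several other settings called it lower in NASH rats. Its level was 129698, 189516 and 241000 CPM in control, 108750, 123477 and 139193 in NASH and 97556, 145833 and 179999 in NASH-CH livers. Of the NASH livers, 4 of 6 lay below every control liver. The log2 fold change was -0.59 ± 0.17 for NASH (adjusted p = 0.0633) and -0.38 ± 0.172 for NASH-CH rats (adjusted p = 0.132). For NASH, DESeq2 (-0.61, adjusted p = 0.00306), sample quality weights (-0.61, adjusted p = 0.0148) and a fit of control and NASH rats alone (-0.58, adjusted p = 0.0408) called it, as did fits without control rat 2 or 6 or NASH-CH rat 5 or 6 (adjusted p of 0.0309 to 0.0472). AY172581.9 (ENSRNOG00000030478) gave -0.37 ± 0.147 for NASH (adjusted p = 0.156) and 0.00099 ± 0.152 for NASH-CH rats, with levels of 20860 to 31854 CPM for control, 17556 to 23606 for NASH and 22245 to 39111 for NASH-CH livers.

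AY172581.15 and AY172581.19 fell in NASH-CH rats, on very low counts. AY172581.15 had 8 to 15 counts for control, 10 to 22 for NASH and 2 to 5 for NASH-CH libraries, although the last were deeper. AY172581.19 had 20 to 39, 20 to 41 and 5 to 19. Log2 fold changes in NASH-CH rats were -2.68 ± 0.368 (adjusted p = 7.2e-05) and -2.39 ± 0.298 (adjusted p = 2.3e-05), and in NASH rats 0.29 ± 0.289 and -0.033 ± 0.247 with neither past the threshold. Both passed the filter on low counts only through control and NASH livers, since NASH-CH livers had at most 0.109 and 0.37 CPM, and with at least 10 counts required in every library neither was tested. A row kept in that way was chosen in part for being higher in control and NASH than in NASH-CH livers, so these calls carry little weight. On the CPM scale neither row overlapped between NASH-CH and control rats, which 3.46% of all genes did downwards. For the same reason this carries little weight. The share of small non-coding RNA other than 7SK and SRP moved with them, at 0.347% of counts or more in control and 0.152 to 0.220% in NASH-CH livers, and its part in these changes was not tested.

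Holding the 7SK and SRP share constant, in a fit chosen after the data had been seen, left no mitochondrial row past the threshold in either comparison with control, where 2 rows in NASH and 5 in NASH-CH rats had an unadjusted p under 0.05. In NASH-CH rats the log2 fold change of Mt-nd4 was then 1.19 (adjusted p = 0.0831), that of Mt-nd4l 1.37 (adjusted p = 0.107), that of Mt-nd2 1.35 (adjusted p = 0.145) and that of Mt-nd1 0.68 (adjusted p = 0.796). Between NASH-CH and NASH no Mt- row passed either, with 0.72 for Mt-nd4 (adjusted p = 0.0996) and 0.94 for Mt-nd2 (adjusted p = 0.0846). Only AY172581.15 and AY172581.19 kept their calls there (adjusted p = 0.00411 for each). Over all genes the same fit called 13 in NASH and 47 in NASH-CH rats, in place of 403 and 2192. Since that share does not overlap between control and NASH-CH rats, it cannot be told apart from the group.

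Ratios between transcripts of the same liver show the uneven change without any scaling between libraries. Counts of each Mt- row were divided by those of Mt-co1, a reference chosen after its values were seen, so these are descriptions without a test. Mt-nd2 amounted to 2.57% ± 0.607 of Mt-co1 for control, 3.83% ± 1.07 for NASH and 6.41% ± 1.79 for NASH-CH livers. For Mt-nd4 the ratio was 3.76% ± 0.832, 5.96% ± 1.24 and 9.21% ± 3.31. Means in NASH-CH were raised by rat 6, the NASH-CH liver with the lowest Mt-co1. It had the highest ratios of its group for Mt-nd2 (9.81%), Mt-nd4 (15.9%), Mt-nd4l (1.55%) and Mt-nd5 (9.49%). Medians were 2.59% in control and 5.78% in NASH-CH livers for Mt-nd2, and 3.56% and 7.98% for Mt-nd4. Mean ratios in NASH-CH were 2.49 times those of control for Mt-nd2, 2.45 for Mt-nd4, 2.34 for Mt-nd4l and 1.81 for Mt-nd1, and in each of these 4 genes all 6 NASH-CH livers lay above all control livers. Over all genes tested, 1.33% had a ratio to Mt-co1 that was higher in every NASH-CH than in every control liver. The other 8 genes overlapped, at 1.44 times for Mt-nd5, 1.39 for Mt-cyb, 1.26 for Mt-atp6, 1.21 for Mt-atp8, 1.15 for Mt-cox3, 1.12 for Mt-co2, 1.05 for Mt-nd3 and 0.858 for Mt-nd6.

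In NASH livers the same 4 genes led, at 1.59 times control for Mt-nd4, 1.49 for Mt-nd4l, 1.49 for Mt-nd2 and 1.21 for Mt-nd1. For each of them 4 of 6 NASH livers lay above every control liver and the other two within its range, so no gene was free of overlap.

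**Figure D4:**
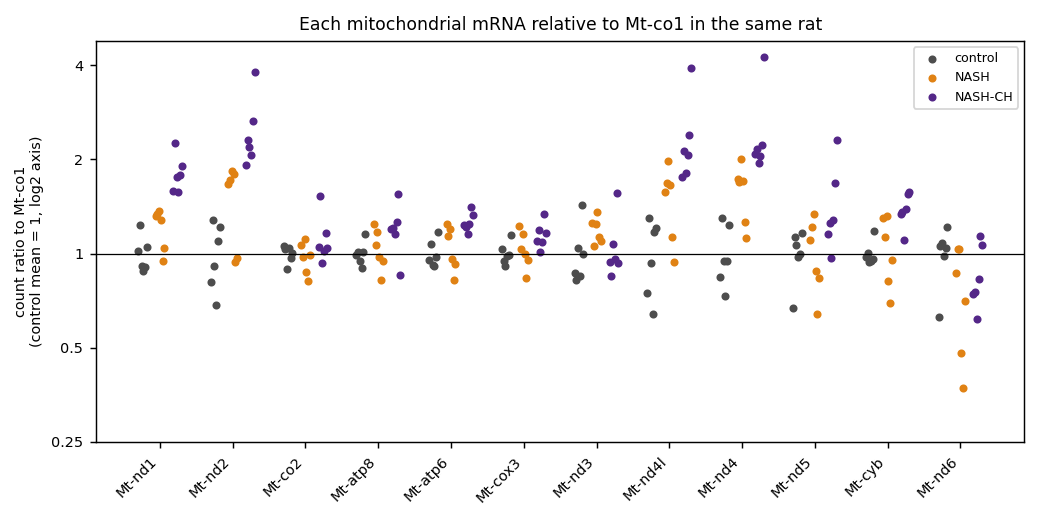
Count ratio of each Mt- row to Mt-co1 in the same rat, divided by the control mean (y axis, log2 scale), for 12 genes (x axis), with 1 point per rat coloured by group. NASH-CH points lie above all control points for Mt-nd1, Mt-nd2, Mt-nd4l and Mt-nd4, and mix with them for the other 8 genes.

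Seen as parts of the Mt- counts, complex I genes made up 11.5% ± 1.35 for control, 13.8% ± 1.83 for NASH and 17.99% ± 2.86 for NASH-CH livers. Complex IV genes made up 75.3% ± 1.94, 73.0% ± 3.09 and 67.2% ± 2.87. The lowest NASH-CH liver had 15.8% in complex I genes and the highest control liver 13.3%, so they did not overlap, and neither did the complex IV parts, with at most 69.4% in NASH-CH and at least 72.9% in control livers. Complex III made up 4.20% ± 0.245 in control and 5.01% ± 0.394 in NASH-CH livers and complex V 8.99% ± 0.594 and 9.77% ± 0.516, with overlap. These parts add up to a whole, so a gain of one lowers the others, and they were not tested.

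In all, 3 ratios set by transcript structure were tested, each in 3 comparisons, with a two-sided exact permutation test whose smallest p is 0.00216 and adjustment over the 9 tests. Mt-nd6 relative to the other Mt- genes, the light-strand gene against the rest, was 0.711% ± 0.133 for control, 0.507% ± 0.167 for NASH and 0.522% ± 0.0982 for NASH-CH livers. The mean log2 ratio of NASH livers minus that of control was -0.54 (p = 0.0584 in the exact permutation test, 0.263 after adjustment). For NASH-CH it was -0.44 (p = 0.0303 in the exact permutation test, again 0.263 after adjustment), and 2 of 6 NASH and 1 of 6 NASH-CH livers lay below every control liver. Control rat 1, at 0.451%, was the lowest control, and without it both differences passed the adjusted threshold, at -0.66 and -0.57. Mt-atp8 to Mt-atp6, overlapping genes on 1 transcript, was 10.2% ± 0.402, 10.1% ± 0.33 and 9.71% ± 1.61, and the log2 ratio in NASH-CH differed from control by -0.088 (p = 0.701, exact permutation test). Mt-nd4l to Mt-nd4 was 10.5% ± 1.39, 9.81% ± 0.655 and 10.1% ± 0.855, with a difference of -0.046 in NASH-CH rats (p = 0.652, exact permutation test). Adjusted p of both overlapping pairs lay between 0.789 and 0.79 in all 3 comparisons.

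Nuclear genes for the same complexes fell wherever they passed the test. Of 73 tested rows for nuclear subunits of complexes I, III, IV and V (71 symbols), 51 fell and none rose in NASH-CH rats, where 8.60% of all genes fell, with a median log2 fold change of -0.46 beside 0.013 for all genes. In NASH rats 5 fell and none rose, where 1.54% of all genes fell, with a median of -0.33 beside 0.0072. The control livers were uneven. Mean log2 CPM of the nuclear complex I rows was 4.95 and 4.96 in control rats 2 and 6. The other controls had 5.36 to 5.52, NASH livers 4.84 to 5.06 and NASH-CH livers 4.51 to 5.07. Control rats 2 and 6 lay within the NASH range in complexes I, III and V. Uqcrq, a small subunit of complex III, fell by 0.97 on the log2 scale in NASH-CH rats (adjusted p = 0.000232), Ndufb2 of complex I by 0.81 (adjusted p = 0.000235) and Cox7a2 of complex IV by 0.82 (adjusted p = 0.000472). Atp5g1, which encodes the c-ring subunit of complex V, fell by 0.77 in NASH (adjusted p = 0.0295) and by 0.73 in NASH-CH rats (adjusted p = 0.0133). By complex, 23 of 34 complex I rows, 5 of 10 complex III rows, 11 of 12 complex IV rows and 11 of 15 complex V rows fell in NASH-CH rats, leaving out Atp5s and Atp5sl, which the name pattern of the list had taken in. Between NASH-CH and NASH rats none of the 73 passed the limma test, 15 had an unadjusted p under 0.05, and edgeR called 0 and DESeq2 2. In NASH rats the 5 calls became 12 with edgeR and 29 with DESeq2. With the 7SK and SRP share as a covariate none was called in either comparison with control (unadjusted p under 0.05 in 1 and 2 rows).

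Within each liver, the mean log2 CPM of mitochondrial-encoded subunits was set against that of nuclear-encoded subunits of the same complex. In complex I the mitochondrial minus nuclear value was 2.65 ± 0.268 for control, 3.07 ± 0.33 for NASH and 3.82 ± 0.335 for NASH-CH livers, and all 6 NASH-CH livers exceeded every control and every NASH liver. The value in NASH-CH exceeded that of control by 1.17 in complex I, 0.93 in complex III and 0.69 in complex IV, each without overlap, and by 0.79 in complex V, where 5 of 6 livers were above the control range. In NASH rats these differences were 0.42, 0.19, 0.18 and 0.26, with overlap in all 4 complexes. Both sides moved in NASH-CH livers, by unlike amounts. In complex I the mitochondrial mean went from 7.93 in control to 8.65 and the nuclear mean from 5.28 to 4.83. In complex IV they went from 11.72 to 11.84 and from 5.67 to 5.10, so that gap was mostly nuclear. The mitochondrial side of complex III is Mt-cyb alone. The measure was chosen after the values were seen and was not tested, and subunits within a complex are not replicates.

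**Figure D5:**
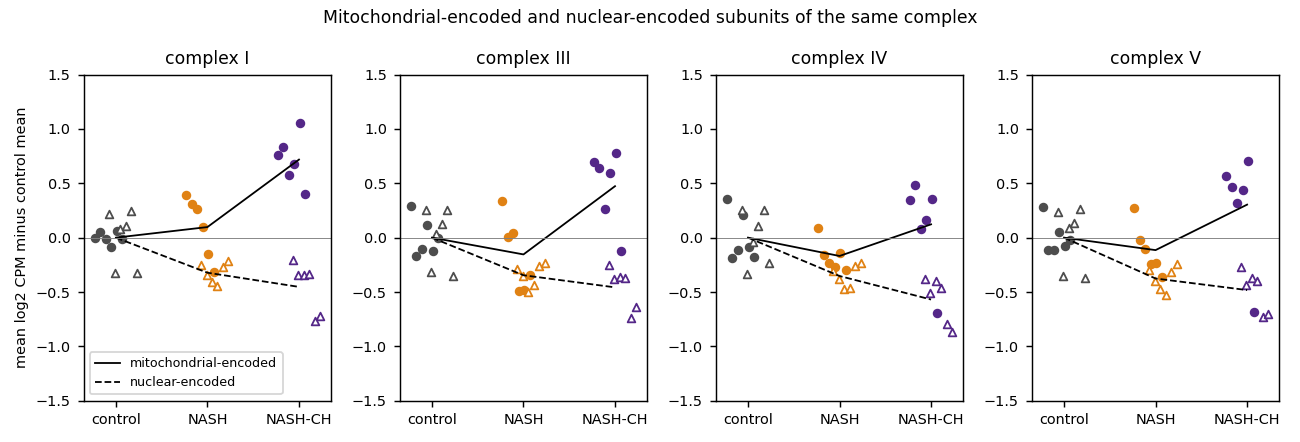
Mean log2 CPM of mitochondrial-encoded (circles, solid line through group means) and nuclear-encoded (open triangles, dashed line) subunits, minus the control mean (y axis), by group (x axis) for complexes I, III, IV and V, with 1 point per rat. In NASH-CH livers the lines part in all 4 complexes, by 1.17 in complex I and 0.69 in complex IV, where the nuclear line moved more than the mitochondrial line.

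Nuclear genes that copy, transcribe and process the mitochondrial genome are set beside all genes, of which 8.60% fell and 8.38% rose in NASH-CH and 1.54% fell and 1.58% rose in NASH rats. None of 14 tested genes for mtDNA replication and maintenance passed the limma test in any comparison, nor with edgeR or DESeq2, and 1 in NASH and 2 in NASH-CH rats had an unadjusted p under 0.05, with median log2 fold changes of -0.047 in NASH and -0.068 in NASH-CH rats. Of 11 transcription genes, 3 fell in NASH-CH rats and none rose. They were Polrmt, the mitochondrial RNA polymerase (-0.37 ± 0.114, adjusted p = 0.0341), Tfam, which packages the genome and starts transcription (-0.27 ± 0.0823, adjusted p = 0.0305), and Mrpl12, a ribosomal protein that also binds the polymerase (-0.29 ± 0.0917, adjusted p = 0.0393). Tfam was at 15.1 to 18.8 CPM for control, 12.8 to 16.1 for NASH and 12.1 to 15.04 for NASH-CH livers, the last just under the control range. Mrpl12 was also the 1 transcription gene that fell in NASH rats (-0.36, adjusted p = 0.0432). The helicase Twnk, listed under its older symbol Peo1, gave 0.15 and -0.11 with neither past the threshold.

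Of 34 genes for mitochondrial RNA processing and turnover, 2 fell in NASH-CH rats, or 5.88%, which is below the 8.60% of all genes: Slirp, which stabilises mitochondrial mRNAs together with Lrpprc (-0.52, adjusted p = 0.0443), and the ribonuclease Rexo2 (-0.33, adjusted p = 0.0364). Lrpprc itself was at 55.5 to 74.6 CPM in control and 55.4 to 93.8 in NASH-CH livers (0.14 ± 0.118, adjusted p = 0.457). Among 73 mitochondrial ribosomal proteins, 19 fell and none rose in NASH-CH rats (26.0% beside 8.60% of all genes, median -0.23), and 5 fell in NASH rats (6.85% beside 1.54%, median -0.22). Mrpl34 (-0.62, adjusted p = 0.00506) and Mrpl54 (-0.48, adjusted p = 0.00385) were among the former, and Mrps27 fell in NASH rats (-0.71, adjusted p = 0.0201). Mrpl1, which fell in NASH and was higher in NASH-CH than NASH rats, was at 1.69 CPM or less in all livers. Of 32 translation factors and tRNA synthetases, 2 fell in NASH-CH rats (6.25%, also below the share of all genes), the cysteinyl-tRNA synthetase Cars2 (-0.75, adjusted p = 0.00468) and Gatc, part of the enzyme that makes glutaminyl-tRNA (-0.28, adjusted p = 0.0461), and Oxa1l, which inserts subunits into the inner membrane, was higher in NASH-CH than in NASH rats (0.30, adjusted p = 0.0377).

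Regulators of mitochondrial biogenesis did not share a direction. Of 13 tested, Ppara, a receptor that drives fatty acid oxidation genes, rose in NASH (0.91 ± 0.219, adjusted p = 0.0308) and NASH-CH rats (0.88 ± 0.226, adjusted p = 0.0132). Control livers had 13.96 to 32.5 CPM of it, NASH livers 28.2 to 48.3 and NASH-CH livers 19.3 to 49.6. Prkaa1, a catalytic subunit of the energy sensor AMPK, rose in NASH-CH rats (0.40, adjusted p = 0.0295), and the nuclear receptor Esrra fell (-0.47, adjusted p = 0.0102). Ppargc1a, the coactivator of these receptors, varied widely, from 2.28 to 11.3 CPM in control and from 6.597 to 17.4 in NASH-CH livers (0.96 ± 0.444, adjusted p = 0.146). Genes of mitochondrial dynamics and mitophagy (12 tested) and of chaperones and proteases (13 tested) gave no limma call in any comparison. In NASH-CH rats 3 of the former and 2 of the latter had an unadjusted p under 0.05, edgeR called 0 and 1, and DESeq2 called 1 of each. Of 10 membrane and matrix genes Slc25a3, the phosphate carrier, fell in NASH-CH rats (-0.26, adjusted p = 0.033).

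Cell type markers moved in part with these changes, in NASH-CH rats where 8.38% of all genes rose and 8.60% fell. Among 7 tested stellate cell and myofibroblast markers 2 rose in NASH-CH rats, including Col1a1 (log2 fold change 1.02, adjusted p = 0.0186), and 1 fell, with a summed level of 277 to 369 CPM in control and 275 to 426 in NASH-CH livers. Of 6 macrophage markers 4 fell, at 198 to 375 CPM in control and 132 to 197 in NASH-CH livers in sum. Cd163 was among them (-0.48, adjusted p = 0.0304), whereas by staining the paper counted more macrophages positive for CD163 or CD68 in NASH-CH than in control livers. RNA level in whole tissue and stained cells per field are unlike measures. Of 4 endothelial markers 1 rose, Vwf (1.13, adjusted p = 0.00245), at 7.98 to 14.3 CPM in control and 15.99 to 39.9 in NASH-CH livers. Cela1, the 1 tested marker on the exocrine pancreas list, fell (-1.72, adjusted p = 0.00019), from 22.6 to 33.1 CPM in control to 6.40 to 20.9 in NASH-CH livers. The untested Cpa1, Prss1 and Pnlip ran from 0 to 687, 809 and 826 counts over all libraries. The summed list ran from 22.6 to 35.6 CPM in control and from 6.53 to 51.1 in NASH-CH livers, with a median of 8.07 in the latter. Erythroid markers summed to 30.2 to 891 CPM in control and 10.7 to 68.3 in NASH-CH livers, with 0 of 4 called by limma (2 at an unadjusted p under 0.05), 2 by edgeR and 4 by DESeq2 as lower. Striated muscle, another tissue rich in mitochondria, had summed markers of at most 0.454 CPM in any liver, with Mb at 0 throughout. The part of these cell types and tissues in the mitochondrial values was not tested.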

How the data were processed

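RNA-Seq libraries of 18 rat livers (6 control, 6 NASH, 6 NASH-CH) were used. The authors trimmed adapters, ran STAR in 2-pass mode on Rnor_6.0 and RSEM on the Ensembl 95 annotation, and the deposited values are RSEM expected counts per gene, not normalized. Labels name a stranded mRNA kit and RNAqueous-Micro, while the methods name another extraction kit. Tool versions are not given in the sources used here. Totals were 19498516 to 60117806 counts.

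Expected counts were rounded, which altered none of the 37 mitochondrial rows (3985 of 32623 genes had non-whole values). Genes were kept by filterByExpr of edgeR 4.0.16 (12904 genes), scaled by TMM and tested with limma 3.58.1 (voom, moderated t-statistics) in R 4.3.3, in 1 fit with a mean per group and Benjamini-Hochberg adjustment in each of 3 comparisons. Scripts were tested on simulated data. CPM use TMM-scaled library sizes, and shares use unscaled totals, so the 2 scales differ. Intervals and limits cover counting error only, at 3 counts for a row with none. Exact permutation tests used scipy 1.17.1. DESeq2 1.42.0 and edgeR's quasi-likelihood test were alternatives.

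Members and gene lists were chosen with earlier results of these data known. Every mitochondrial row was eligible to be named. A planned choice of 3 tRNA rows by moderated t could not be made, since no row is paired with a tRNA name. The 4 tested AY172581 rows were named instead. From each nuclear list, up to 3 genes per comparison with the largest moderated t among those past 0.05 were eligible, plus Tfam, Polrmt, Twnk, Ppargc1a and Lrpprc. Marker genes were named where a result turned on them. Replicate numbers are shared between groups, but same-numbered rats did not deviate together (mean correlation 0.0516, 0.0732 and 0.0154 in the 3 comparisons), so no block was used. Mitochondrial sequences and coordinates were not used here.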

Additional observations from a re-analysis of the deposited data

Results flagged for a closer look

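Single rats lay far from the other 5 of their group in 5 of 69 groups of values examined, by a gap over Dixon's critical value at 95%, and chance alone gives such a gap in about 1 group in 20. Mt-co1 was at 6628 CPM in NASH-CH rat 6, with the other NASH-CH livers at 12300 to 13850 CPM. The same liver had a Mt-atp8 to Mt-atp6 ratio of 0.06558, with the others at 0.09918 to 0.1118. Mt-cox3 was at 2839 CPM in NASH rat 1, above the 1876 to 2192 CPM of the other NASH livers. Control rat 1 had a ratio of Mt-nd6 to the other Mt- genes of 0.004511, below the 0.007198 to 0.0082 of the other controls. Control rat 5 had a Mt-nd4l to Mt-nd4 ratio of 0.1307, above the 0.0923 to 0.1056 of the others. Reasons for these values were not tested.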

How the results depend on the processing

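With 12 other analysis settings, and with each of the 18 rats left out in turn, the 16 called log2 fold changes gave 476 values, of which 437 kept direction and call, 39 kept direction and lost the call, and none reversed. That count leaves out the fit with the 7SK and SRP share as a covariate, chosen after seeing the data, in which 14 of the 16 calls were lost and 2 kept. The 2 kept were those of AY172581.15 and AY172581.19 between NASH-CH and NASH, so no Mt- row kept a call. Calls of these 2 rows, which carry little weight, are also among the 16 and their 476 values. The number of mitochondrial rows called in NASH rats (1) was 2 with DESeq2, 3 with library size only, 3 with sample quality weights and 0 with the covariate. It was 1 with both groups fitted alone, but there Mt-nd4 was lost and AY172581.24 was called lower. In NASH-CH rats (7) it was 8 with edgeR, 8 with DESeq2 and 0 with the covariate. It was 19 without a filter, where rows of a few counts enter. Library size only gave 8 rows higher and 2 lower, and at least 10 counts in every library 5 and 0. With sample quality weights Mt-cyb replaced Mt-nd5. Between NASH-CH and NASH (8) it was 9 with DESeq2, 19 without a filter and 2 with the covariate. There nuclear scaling, and leaving out small RNA, each gave 5 higher and 2 lower. Both groups alone gave 4 and 2, sample quality weights 7 and 2, and at least 10 counts 6 and 0. With the replicate block the counts were 1, 6 and 8, and Mt-nd5 lost its call in NASH-CH rats (adjusted p = 0.0598). For the ratios the block gave unchanged differences and adjusted p of 0.562 to 0.875, with 0.0312 the smallest p its 64 sign changes allow. Under library size only, which moved the median of all genes by 0.22 in NASH and 0.26 in NASH-CH rats, uncalled values in NASH reversed for Mt-nd5 (0.044), Mt-co2 (0.014), Mt-cox3 (0.098), Mt-cyb (0.072), Mt-atp6 (0.12), Mt-atp8 (0.11), Mt-co1 (0.059) and AY172581.19 (0.16), in NASH-CH for Mt-nd6 (0.042, and 0.058 with the covariate), and between NASH-CH and NASH for Mt-nd3 (0.0018, and 0.039 with edgeR, 0.038 with DESeq2 and 0.16 with the covariate). Near 0 in NASH-CH rats, AY172581.9 reversed to -0.0047 with DESeq2 size factors, -0.0044 with nuclear scaling, -0.012 without small RNA and -0.0012 with thinned counts, and Mt-co1 to -0.0015, -0.0013 and -0.0087 under the first 3 of these, while AY172581.24 was 0.20 with the covariate. The causes were not tested. The mitochondrial share in NASH, 17.2% beside 21.0% in control, differed by -6.68 points without the 10 most counted nuclear genes and by -5.87 relative to nuclear counts. Calls over the nuclear gene lists in NASH (11) were 20 with edgeR and 51 with DESeq2, and between NASH-CH and NASH (2) 7 with DESeq2 and 4 with library size only. Leaving out 1 rat gave 0 to 3 mitochondrial calls in NASH and log2 values of -0.22 to 0.055 for AY172581.19 in NASH, of -0.12 to 0.056 for AY172581.9, -0.077 to 0.25 for Mt-nd3 and -0.051 to 0.17 for Mt-co1 in NASH-CH, and of -0.19 to 0.14 for Mt-nd3 between NASH-CH and NASH. The ratio of Mt-nd6 ranged from -0.66 to -0.39 in NASH, -0.57 to -0.37 in NASH-CH and -0.055 to 0.20 between them, that of Mt-atp8 from -0.032 to 0.0047, -0.13 to 0.021 and -0.12 to 0.034, and that of Mt-nd4l in NASH-CH from -0.080 to 0.020. Depth limits the rows AY172581.15 and AY172581.19 and the 20 rows that were not tested.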

Other observations

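Within the NASH group, the 13 Mt- rows ranked the livers alike in part, though not in every row. NASH rat 1 was highest in 9 of the 13 rows and NASH rat 6 lowest in 8. In the NASH-CH group, rat 5 was highest in 9 rows and rat 6 lowest in 10, and in the control group rat 1 was highest in 7. The ratio of AY172581.24 to AY172581.9, which no scaling affects, was 6.94 ± 0.687 in control (SD, n = 6), 5.96 ± 0.572 in NASH and 5.47 ± 1.46 in NASH-CH livers, and 4 of 6 livers of each disease group lay below every control liver. This ratio was chosen after its values were seen and was not tested, and neither was the part of library preparation in it.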
